A study of Mus musculus with 302 samples.

Results

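The livers of 302 F2 mice fell into a low and a high state of Pttg1, and this account sets the 85 low-state livers (28.1% of the mice) against the 217 high-state livers. The states were made from the 1 Pttg1 probe of the array by splitting its values around 2 means, started at the lowest and the highest mouse, and a mouse belonged to the mean nearer to its value. Both groups were thus chosen by the measured Pttg1 level, which is given only as a description, and tested nowhere. The mice were second-generation offspring of C57BL/6J crossed with C3H/HeJ, a pair of inbred strains, and both directions of the cross were used. They had chow of 4% fat up to 8 weeks of age, then a Western diet of 42% fat with 0.15% cholesterol for 12 weeks, and were killed at 20 weeks after 12 h without food. Every liver, in both states, shares this diet, age and fast. Each array carried the Cy3-labelled RNA of 1 mouse against a Cy5-labelled pool made of equal shares of the mice. The labels put all mice in 1 group and give no sex, genotype or cross direction. Values were read as log10 of mouse over pool, a base and a direction that are likely but not stated, so "higher" and "lower" rest on that reading.

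Pttg1 encodes securin. Securin holds the protease separase, the product of Espl1, inactive until the chromosomes are attached to the spindle. The anaphase-promoting complex with its activator Cdc20 then marks securin for destruction, separase cuts the cohesin rings that join sister chromatids, and the chromatids part. Most hepatocytes of an adult liver rest outside the cell cycle, and securin RNA is best known as a transcript of dividing cells.

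In the low state the Pttg1 log ratio ran from -1.01 over a median of -0.726 to -0.388 (n = 85). In the high state it ran from -0.209 over a median of 0.0179 to 0.361 (n = 217). The groups do not overlap, as the split requires, and an empty stretch of 0.179 lies between them around the dividing value of -0.326. The low mean lay 0.777 below the high mean, a 5.98-fold difference that equals 5.80 times the SD within a state. The low-state livers nearest to the dividing value had -0.388, -0.412 and -0.434, and the high-state livers nearest to it -0.209, -0.182 and -0.168. Only 4 mice lay within 1 SD of it, and a Gaussian mixture put every mouse in the same state.

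The high state held a further step. A split around 3 means, chosen after the values were seen, left the 85 low-state livers as they were and parted the high state into 146 middle livers (48.3%) and 71 upper livers (23.5%). The middle level ran from -0.209 over a median of -0.0160 to 0.105, and the upper level from 0.113 over 0.232 to 0.361. No empty stretch like that below the high state separates these neighbours. As a linear ratio to the pool the means were 0.203 ± 0.0662 in the low, 0.963 ± 0.129 in the middle and 1.73 ± 0.245 in the upper level (SD, n = 85, 146 and 71). By the means of the log ratios the upper level lay 0.253 above the middle, or 1.79-fold, and the middle 0.694 above the low, or 4.95-fold.

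**Figure D1:**
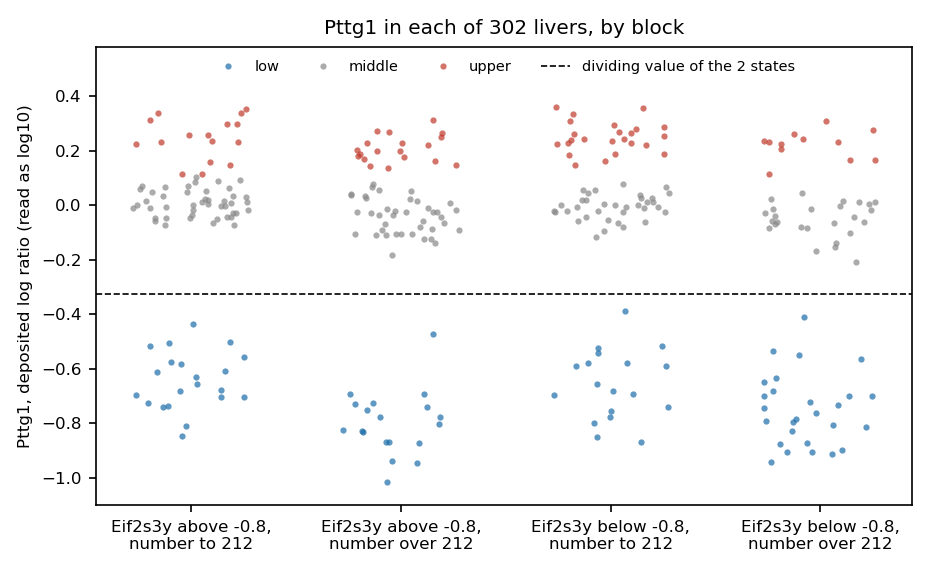
Pttg1 log ratio (vertical axis, read as log10) of each of the 302 livers in 4 blocks, made from the Y-linked gene Eif2s3y and the number in the mouse's title. Each point is 1 mouse, blue for the low, grey for the middle and red for the upper level, and the dashed line is the dividing value of -0.326. Both states occur in every block, and the empty stretch around the line recurs in each.

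Low-state livers occurred in every block of the study. Eif2s3y, a translation factor gene on the Y chromosome, had a gap of its own, with 142 mice below and 160 above -0.8, and the title numbers were divided at 212. The share of low-state livers was 25.6% (21 of 82) and 24.4% (19 of 78) in the lower and the higher numbers with Eif2s3y above -0.8. With Eif2s3y below it, the share was 23.4% (18 of 77) and 41.5% (27 of 65), and this last block was not tested apart from the others. The share did not pass Fisher's exact test (two-sided) between the Eif2s3y ranges (31.7% below against 25% above, p = 0.203) or between the number ranges (24.5% against 32.2%, p = 0.159). The same split made on Hsd17b13, Xdh, Nlrp12 and Paip1 gave low states that did not pass it against the Pttg1 states either (exact p from 0.224 to 0.437), and the adjusted p over all 6 comparisons ran from 0.368 to 0.437.

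Array medians ran from -0.0117 to 0.0174 and the median SD over an array's probes was 0.0975 in both states. The lowest correlation between arrays was -0.519 and 1035 of 45451 pairs lay under -0.3; the mouse is in Cy3 on every array, and the direction was left as it is. A ratio to a liver pool gives no absolute level, so the tissue label could not be checked against marker levels. Of 13 measured hepatocyte markers 0 were called between the states (limma), where 0.451% of all probes were, with differences from -0.0241 to 0.0181 and 1 at an unadjusted p under 0.05. Each sample is the liver of 1 mouse, so errors are between mice, and their number sets the precision.

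Outside Pttg1 the states differed in few genes, and these lay mostly on the chromosome that carries Pttg1. Low minus high, with the 4 blocks as a term, was fitted by limma over 23511 probes, and 106 probes (0.451%) had a Benjamini-Hochberg adjusted p under 0.05. Of these 47 (0.2%) were higher and 59 (0.251%) lower in the low state, and 1824 had an unadjusted p under 0.05. Of the called probes, 75 carry the names of 69 genes and 31 have no gene name. Chromosome 11, where Pttg1 lies, held 59 of the 75 named probes (78.7%) and 53 of the genes. The same chromosome holds 8.38% of all named probes tested. There 25 called probes were higher and 34 lower in the low state, so no common direction was present. The differences were small, with a median of 1.13-fold, and 5 exceeded 1.5-fold.

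Mtif2, which encodes the initiation factor that starts translation in mitochondria, had the smallest adjusted p of any named gene. Its low-state livers ran from -0.356 over a median of -0.135 to 0.117, and its high-state livers from -0.296 over 0.0590 to 0.266. The ranges overlap, yet 95.3% of the low-state livers lay below the high-state median. The difference was -0.173 ± 0.0130 (SE, limma adjusted p = 4.79e-28), 1.49-fold lower, and it was -0.166 and -0.180 in the lower and the higher title numbers.

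Camk2b, a subunit of a calcium-activated kinase, differed most. Its low-state livers ran from -1.29 over a median of -1.03 to 0.427 and its high-state livers from -1.20 over 0.0123 to 0.519, for a difference of -0.606 ± 0.0610 (SE, limma adjusted p = 4.52e-17) or 4.03-fold. Camk2b has separate levels of its own, so counts of mice describe it better than a mean. By the same 2-means rule 99 mice were low in Camk2b, with a highest value of -0.499 against a lowest of -0.450 in the rest. They made up 62 of 85 mice (72.9%) in the low level of Pttg1, 34 of 146 (23.3%) in the middle and 3 of 71 (4.23%) in the upper. Gas7, named for its induction at growth arrest, was lower too, with medians of -0.315 in the low and -0.0116 in the high state and a difference of -0.239 ± 0.0235 (SE, limma adjusted p = 9.97e-18).

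Fancl, the ubiquitin ligase of the Fanconi anaemia DNA repair pathway, was higher in the low state. Its values ran from -0.0714 over 0.145 to 0.353 in the low and from -0.385 over -0.0278 to 0.464 in the high state. The difference was 0.185 ± 0.0155 (SE, limma adjusted p = 3.18e-23), 1.53-fold higher, with 95.3% of the low-state livers above the high-state median. Of 4 measured genes of the Tim family of cell surface receptors, which lie 12 to 17 genes after Pttg1, 3 were higher. Havcr2, the nearest of them, had a difference of -0.00334 (limma adjusted p = 0.987). Havcr1 had a difference of 0.0627 and Timd2, a receptor for ferritin, one of 0.143 (limma adjusted p = 1.17e-21 and 2.35e-21). Timd4, by which macrophages bind dying cells, ran from -0.240 over 0.144 to 0.564 in the low and from -0.735 over -0.0798 to 0.595 in the high state. Its difference was 0.213 ± 0.0219 (SE, limma adjusted p = 2.20e-16), while its second probe gave 0.0124 (adjusted p = 0.800). In these bulk livers a change in the number of cells of a type and a change in RNA per cell cannot be told apart. These genes are relatives, and whether a probe of one also binds RNA of another was not tested.

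Further genes of chromosome 11 were lower, enzymes among them. Dhrs7b, a reductase of ether lipid synthesis, fell from a high-state median of -0.0157 to -0.211 in the low state, with a difference of -0.169 (limma adjusted p = 6.54e-21). Guk1, the guanylate kinase, had a difference of -0.102, and Ogdh, a subunit of the 2-oxoglutarate dehydrogenase of the citric acid cycle, one of -0.0781. Atox1, which carries copper to the export pumps, had a difference of -0.127. Ccm2, a scaffold known from blood vessels, and Pnpt1, a nuclease of mitochondrial RNA, had -0.0995 and -0.116. All 5 passed, with limma adjusted p of at most 2.60e-13. Pitpna, a phosphatidylinositol carrier, had -0.128 by one probe (limma adjusted p = 1.31e-12) and 0.00496 by the other (adjusted p = 0.746).

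Probes of 1 gene also disagreed next to Pttg1. Ublcp1, a phosphatase that acts on the proteasome and the fifth gene after Pttg1, has 3 probes. Their differences were 0.126, 0.0651 and -0.0731, all called (limma adjusted p = 3.01e-17, 4.33e-06 and 5.31e-15), so no direction is given for this gene. The 31 called probes without a gene name included the smallest adjusted p of all, at -0.223 (1.67-fold, limma adjusted p = 1.38e-35).

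Along the chromosome the share of called probes fell with the distance from Pttg1. Pttg1 is the 125th of 892 genes with a probe there, by gene order in the assembly GRCm38.p6. Within 25 genes of it 8 of 61 probes were called (13.1%), from 26 to 100 genes 19 of 183 (10.4%), from 101 to 300 genes 17 of 254 (6.69%) and beyond 300 genes 15 of 560 (2.68%). On all other chromosomes 16 of 11561 were called (0.138%). The called genes reached from Ykt6, a membrane fusion protein 87 genes before Pttg1, to Smarce1, a subunit of a chromatin remodeller 510 genes after it. Nearness alone did not mark a gene: of the 16 measured genes nearest to Pttg1, 8 on each side, 2 were called, Ublcp1 and Ttc1, a chaperone partner with 0.0292 ± 0.00655 (SE, limma adjusted p = 0.00366). The nearest on either side, Atp10b and Fabp6, had differences of 0.000517 and 0.00112 (limma adjusted p = 0.982 and 0.969).

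**Figure D2:**
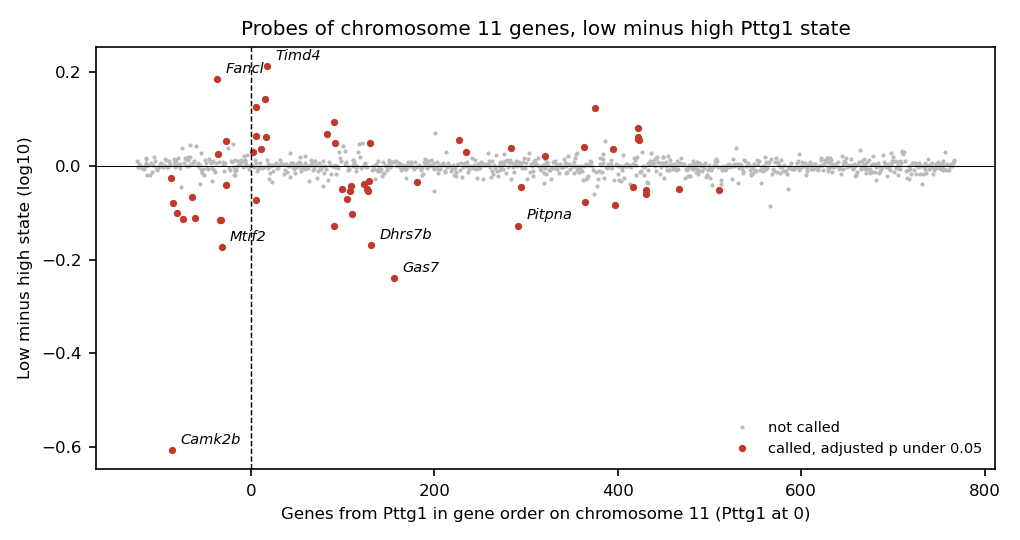
Difference between the low and the high Pttg1 state (vertical axis, log10, blocks removed) for each probe of a chromosome 11 gene, by the number of genes that separate it from Pttg1 (horizontal axis, gene order). Red points are called at a limma adjusted p under 0.05 and grey points are not. Called probes lie from 87 genes before to 510 genes after Pttg1, in both directions, with Camk2b lowest at -0.606.

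The step between the middle and the upper level, which the split into states did not use, ran the same way. Upper minus middle, fitted over the same probes, called 47 (0.2%), and 28 of the 30 named ones lay on chromosome 11. Of the 47, 44 were also among the low minus high calls; both contrasts share the upper and middle mice. In 59 of the 59 called probes of chromosome 11 the upper level lay further from the low state than the middle did, against 55.4% of all probes. Both steps were called in 33 probes, and in 33 of these they had the same direction. Mtif2 means were -0.117, 0.0260 and 0.117 in the low, middle and upper levels, with an upper minus middle step of 0.0954 (limma adjusted p = 1.68e-08). For Fancl the means were 0.143, 0.0205 and -0.157, with a step of -0.171 (limma adjusted p = 7.37e-23). Timd2 had a step of -0.153 (limma adjusted p = 8.16e-30), after 0.0929 for low minus middle. Camk2b gave 0.255 and did not pass (adjusted p = 0.0816). The middle level departed from the midpoint of the others in 0 probes (limma, 0%), with 1019 at an unadjusted p under 0.05 (4.33%).

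**Figure D3:**
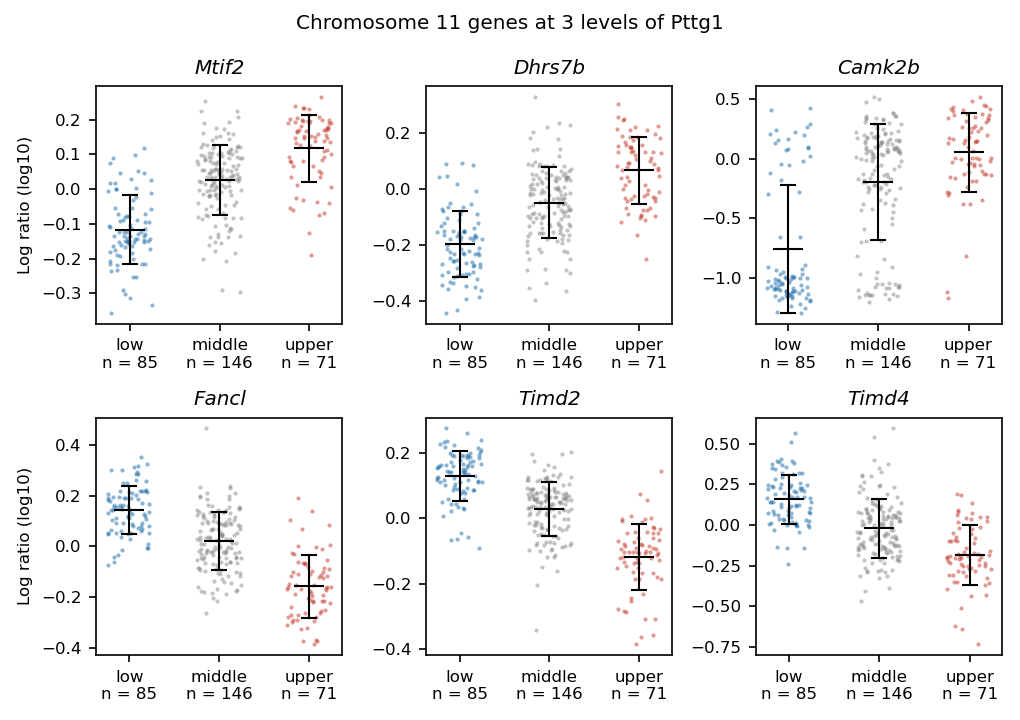
Log ratio (vertical axes, read as log10) of 6 chromosome 11 genes in the livers of the low, middle and upper Pttg1 levels (85, 146 and 71 mice). Points are mice and black bars the mean ± SD. Mtif2 and Dhrs7b climb with the Pttg1 level, Fancl, Timd2 and Timd4 descend, and Camk2b shows its own low group, with 72.9, 23.3 and 4.23% of the mice in it.

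Away from chromosome 11 the states differed in 16 named probes, 4 higher and 12 lower in the low state. Coa4, an assembly factor of respiratory complex IV on chromosome 7, had the smallest adjusted p of these. It ran from -0.201 over a median of -0.0469 to 0.122 in the low and from -0.0960 over 0.0215 to 0.147 in the high state, a difference of -0.0675 ± 0.00607 (SE, limma adjusted p = 7.13e-21). It was called in both number ranges and in both Eif2s3y ranges. The upper minus middle step of Coa4 was called as well (0.0474, limma adjusted p = 7.43e-10). Whether its probe also binds RNA of another gene was not tested. Npy, the peptide hormone neuropeptide Y, was 0.0213 ± 0.00365 higher (SE, limma adjusted p = 8.59e-06). The pseudogene Gm15772, which the probe table lists under the ribosomal name Rpl26, had 3 probes that disagree (0.0382, -0.0237 and -0.0170), and only the first was called. Its upper minus middle step was called too (-0.0351, limma adjusted p = 0.00236). The place of this probe on chromosome 5 rests on the pseudogene's name, and whether it reads Rpl26 itself was not tested.

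Abcb4, the pump that releases phosphatidylcholine into bile, ran from -0.274 over -0.0336 to 0.155 in the low and from -0.274 over 0.0108 to 0.230 in the high state. The ranges coincide almost fully, and the difference was -0.0435 ± 0.00931 (SE, limma adjusted p = 0.00160), 1.11-fold. Mttp, which loads lipid onto nascent lipoproteins, had -0.0361 ± 0.00827 (SE, adjusted p = 0.00488), 1.09-fold. Cd163, the scavenger receptor of macrophages for haemoglobin bound to haptoglobin, had the largest difference off chromosome 11. It ran from -0.983 over -0.0767 to 0.418 in the low and from -1.09 over 0.101 to 0.664 in the high state, a difference of -0.165 ± 0.0356 (SE, limma adjusted p = 0.00182). Of 18 measured macrophage and Kupffer cell markers 1 was called, Timd4, and the list's median difference was 0.0119, with a range from -0.00388 to 0.213. The remaining named calls were lower in the corepressor Tle6, the T cell receptor segment Trav9d-3, the RNA methylation factor Virma, Dcbld1, the sialyltransferase St3gal3, the glycerol channel Aqp3, the chaperone Hsph1 (-0.0833, limma adjusted p = 0.0284) and Pard3. They were higher in the mucosal peptide Tff3 and the annexin Anxa8.

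Few calls off chromosome 11 passed in each range of the blocks. All 106 called probes had the same sign in both number ranges and in both Eif2s3y ranges. They were chosen in all of these mice, so a shared sign in parts of the same mice was likely beforehand and is no separate check. Of the 59 on chromosome 11, 21 were called in both number ranges and 23 in both Eif2s3y ranges. Of the 16 elsewhere, 2 and 1 were. In the lower title numbers alone 120 probes were called and in the higher ones 43, and 31 were in both (25.8% and 72.1% of each list). With Eif2s3y below and above -0.8 the counts were 47 and 63, with 33 shared (70.2% and 52.4%). The test of the difference itself called 0 probes between the Eif2s3y ranges (limma, 0%, with 1235 at an unadjusted p under 0.05) and 2 between the number ranges (0.00851%).

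None of the measured genes with which securin works passed the test between the states. In 5 lists of cell-division genes 71 were measured; 0 passed the low minus high test (limma), against 0.451% of all probes, and 4 had an unadjusted p under 0.05. For all 71 the 95% interval of the difference lay within 1.5-fold in both directions. Espl1, the separase that securin inhibits, ran from -0.0845 over -0.00406 to 0.297 in the low and from -0.0984 over -0.00596 to 0.212 in the high state, a difference of 0.00509 ± 0.00624 (SE, limma adjusted p = 0.893). Cdc20, which directs the anaphase-promoting complex to securin, had -0.00277 ± 0.0276 (SE, adjusted p = 0.992), with a low range from -0.430 over -0.113 to 0.628 and a high range from -0.493 over -0.125 to 0.578. For the 23 measured genes of the mitotic list the bounds of the intervals ran from 0.880- to 1.21-fold and the median difference was 0.00793. The median was 0.00212 for separase and the anaphase-promoting complex (10 genes), -0.00138 for cohesin and its partners (8), 0.00970 for the spindle checkpoint (9) and 0.00928 for DNA replication (21), against 0.000438 over all probes.

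The other lists held 1 call. Of 293 measured genes in 25 lists 1 was called, Timd4, and 40 had an unadjusted p under 0.05 (13.7%, against 7.76% of all probes). Targets of the tumour suppressor p53 had 0 called of 15, with a median of -0.0114 (limma, 2 at an unadjusted p under 0.05). Genes reported elsewhere as targets of PTTG1 had 0 of 8 and a median of -0.00596, with 1 at an unadjusted p under 0.05. In the acute phase list, secreted proteins that the liver makes in inflammation, 0 of 14 were called, the differences ran from 0.00634 to 0.0640 and 6 had an unadjusted p under 0.05. In sterol synthesis 0 of 14 were called, with differences from 0.00217 to 0.0836 and 5 at an unadjusted p under 0.05.

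Within a state, 14 of the 23 mitotic genes went up and down with the Pttg1 level from mouse to mouse, and 6 did with the arrays' first principal component added. The slope of each probe on Pttg1, with the means of the states and the blocks removed, is given in log10 units per log10 unit of Pttg1. It was called for 7176 probes (30.5%), 3275 positive (13.9%) and 3901 negative (16.6%). The same slope called 13.1% of probes for Hsd17b13, 0.902% for Xdh, 22.0% for Nlrp12 and 15.9% for Paip1, within their own states. The first principal component itself went with Pttg1 within the 2 states, with a correlation of 0.298 in size. Among these genes the share of called probes was largest for Pttg1, and the differences between them were not tested. The 14 mitotic slopes that passed were positive and 0 were negative. Linked genes enter this count too, since the middle and upper levels lie in 1 state. With Pttg1 centred in each of the 12 combinations of 3 levels and 4 blocks, chosen after the data were seen, 10001 probes were called (42.5%, 20.0% positive and 22.5% negative). Then 19 of the 23 mitotic genes had a positive slope and 0 a negative one. With the first principal component of the arrays added, 6 of 23 were positive in the fit of 2 states. There 2555 of 23511 probes were called in either direction. In the fit of 3 levels 15 of 23 were positive with it, where 25.1% of all probes were called (13.5% positive and 11.6% negative). Fitted in the number ranges alone, 11 and 13 were positive in the lower and the higher, and in the Eif2s3y ranges 15 below and 10 above. The ranges are parts of the same mice, so this is no separate check. Calls over all probes in each range are given with the processing below, and not by direction. The mitotic counts in the ranges thus have no share of positive probes beside them.

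Slopes of the following genes come from the fit with 12 combinations. Cdc20 had 1.26 ± 0.137 (SE, limma adjusted p = 4.55e-15) by the probe with the largest spread, and 0.375 and 0.0862 by its other probes, also called. Ccnb2, a B-type cyclin that drives entry into mitosis, had 1.02 ± 0.119 (SE, limma adjusted p = 1.03e-13). Its log ratio ran from -0.427 over -0.104 to 0.463 in the low state and from -0.434 over -0.0915 to 0.563 in the high state, so the states overlap fully in it. Birc5, the survivin of the chromosomal passenger complex, had 1.16 ± 0.132, the kinase Plk1 had 0.660 ± 0.0831 and Cdca8, another passenger subunit, 0.945 ± 0.112 (SE, limma adjusted p of at most 3.61e-12). Of these Birc5 lies on chromosome 11, 712 genes after Pttg1. Its difference between the states was 0.0303 (limma adjusted p = 0.842). Nek2, a kinase that separates centrosomes and the first of the named genes off chromosome 11 by the slope within 2 states, had 0.839 ± 0.0875 (SE, limma adjusted p = 4.81e-16). Its difference between the states was -0.0209 (adjusted p = 0.838). Espl1 itself had a slope of 0.173 ± 0.0337 (SE, limma adjusted p = 4.34e-06).

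Most cohesin genes had slopes of the opposite sign. Of 8 measured genes of cohesin and its partners 5 had a negative and 1 a positive slope. Smc3, a core subunit of the ring, had -0.468 ± 0.0656 (SE, limma adjusted p = 2.65e-10) and its other probe -0.306, and Stag2, a subunit that binds the ring, had -0.560 ± 0.0958 (SE, adjusted p = 1.87e-07). With the first principal component added in the fit of 3 levels 2 of 8 were negative, and Stag2 gave -0.174 (adjusted p = 0.126). The spindle checkpoint was mixed, with 4 positive and 3 negative of 9, among them Ttk at 0.580 and Zw10 at -0.257. In DNA replication 8 of 21 were positive and 4 negative. These counts stand beside 20.0% positive and 22.5% negative among all probes. With the first principal component added in the fit of 3 levels, the spindle checkpoint had 2 positive and 2 negative, and DNA replication 3 and 2. That fit called 13.5% of all probes as positive and 11.6% as negative.

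The promoters of Pttg1 and of 3 genes that moved with it are shown because late cell-cycle genes often carry a CCAAT box and a TTTGAA element, the core of the cell cycle homology region. Each is the stretch of 250 bases before the RefSeq start of the gene (GRCm38.p6, gene's strand, 5′ to 3′), with matches to CCAAT and, where they occur, to TTTGAA on either strand in capitals.
Pttg1 (chr11:43425982-43426231, minus strand): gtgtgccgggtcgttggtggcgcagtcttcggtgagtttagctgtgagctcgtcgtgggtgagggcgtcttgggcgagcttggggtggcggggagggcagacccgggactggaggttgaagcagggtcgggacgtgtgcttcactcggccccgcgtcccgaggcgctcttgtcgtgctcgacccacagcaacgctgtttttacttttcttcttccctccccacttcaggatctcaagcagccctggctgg
Cdc20 (chr4:118437344-118437593, minus strand): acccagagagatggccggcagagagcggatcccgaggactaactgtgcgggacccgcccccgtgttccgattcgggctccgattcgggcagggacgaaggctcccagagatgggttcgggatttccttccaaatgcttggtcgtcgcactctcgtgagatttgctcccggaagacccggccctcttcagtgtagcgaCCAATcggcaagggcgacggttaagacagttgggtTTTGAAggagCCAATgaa
Ccnb2 (chr9:70421555-70421804, minus strand): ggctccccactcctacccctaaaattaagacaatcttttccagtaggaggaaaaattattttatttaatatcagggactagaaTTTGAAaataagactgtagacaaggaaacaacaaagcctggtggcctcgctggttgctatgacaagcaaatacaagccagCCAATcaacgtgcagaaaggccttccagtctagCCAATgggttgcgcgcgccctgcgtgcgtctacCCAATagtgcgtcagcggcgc
Nek2 (chr1:191821223-191821472, plus strand): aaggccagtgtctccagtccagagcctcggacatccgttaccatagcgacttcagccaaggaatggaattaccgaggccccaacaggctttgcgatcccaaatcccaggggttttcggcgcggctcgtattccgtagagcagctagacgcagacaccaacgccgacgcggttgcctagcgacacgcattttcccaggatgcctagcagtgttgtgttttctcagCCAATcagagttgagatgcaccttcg
Cdc20 and Ccnb2 hold both elements in this stretch, Nek2 only CCAAT, and in Pttg1 neither set of letters occurs. Of the 23 mitotic genes 19 matched the table, with 21 promoters, and 16 of these (76.2%) hold CCAAT on either strand and 10 (47.6%) TTTGAA. Among the mitotic genes with a positive slope within 2 states, 10 of 13 promoters (76.9%) hold CCAAT and 5 of 13 (38.5%) TTTGAA. Over all 32851 promoters in the table the shares were 33.8% and 16%, and over those of measured genes 34.6% and 12.2%. A match is a run of letters and not a measured binding site, and the 2 motifs do not overlap each other.

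The mitotic slopes were also present inside the low state, and were steeper there. Fitted apart, the slope was called in the low state for 17 of 23 mitotic genes, all positive (against 25.2% of all probes, 10.7% positive and 14.5% negative). In the middle and upper levels together 6 of 23 were called, all positive (against 35.3%, 18.9% positive and 16.4% negative). The difference of the slopes was called for 13 of the 23, each more positive in the low state, against 11.3% of all probes. Of all probes 4.84% had a more positive slope in the low state and 6.49% a more negative one. Cdc20 had 1.5 ± 0.169 in the low state and 0.822 ± 0.227 in the others, and this difference did not pass (limma adjusted p = 0.102). Ccnb2 had 1.34 ± 0.145 and 0.433 ± 0.195 (difference 0.912 ± 0.243 SE, limma adjusted p = 0.00743). Birc5 had 1.48 ± 0.162 and 0.599 ± 0.218 (adjusted p = 0.0219), and Plk1 0.844 ± 0.102 and 0.329 ± 0.137 (adjusted p = 0.0334). Espl1 had a slope of 0.274 in the low state and -0.00744 in the others (adjusted p = 0.00327). Of 9 checkpoint genes 4 had a more positive slope in the low state, Mad2l1, Ndc80, Ttk and Nuf2. Nek2 had 0.899 and 0.732, and the difference of 0.167 ± 0.183 (SE) did not pass (limma adjusted p = 0.610).

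Other values move with this. The SD of Pttg1 within the combinations was 0.120 in the low level, 0.0546 in the middle and 0.0584 in the upper. Macrophage markers had a positive slope in 10 of 18 in the low state and in 0 of 18 in the others, where 3 were negative, and 5 differed. Over all probes 10.7% were positive in the low state and 18.9% in the others, where 16.4% were negative. With the first principal component added in the fit of 3 levels, the slope over both was positive in 0 of the 18 and negative in 11, with a median of -0.273. Among all probes 13.5% were positive and 11.6% negative in that fit. The part of the macrophage markers in the mitotic slopes was not tested. With block effects common to the states, 8 of the 23 mitotic genes were steeper in place of 13. In that fit 9.52% of all probes had a more positive slope in the low state.

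**Figure D4:**
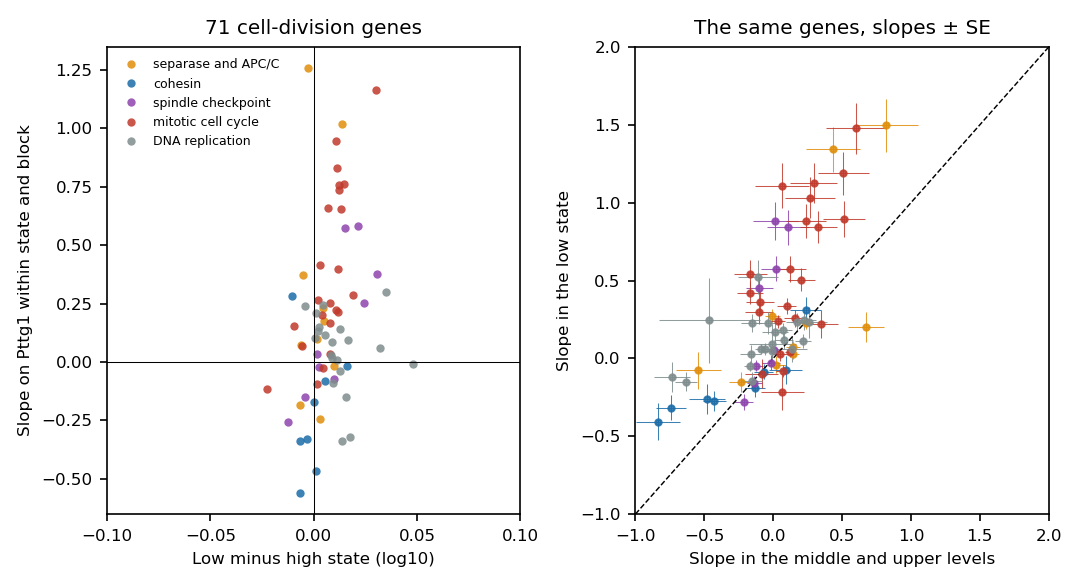
Left, slope on Pttg1 within level and block (vertical axis, log10 per log10) against the low minus high difference (horizontal axis, log10) for 71 cell-division genes, 1 point a gene, coloured by list. Right, the same genes' slope in the low state against that in the middle and upper levels, with bars of ± SE and a dashed line of equal slopes. The differences between the states lie near 0 while the slopes reach 1.26, and 13 of the 23 mitotic genes were steeper in the low state (8 with common block effects).

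Splits of the same mice by other genes serve as a scale. The same rule and fit called 659 probes for Hsd17b13 (2.8%), 103 for Xdh (0.438%), 138 for Nlrp12 (0.587%) and 45 for Paip1 (0.191%). Of their named calls 23.1, 62.3, 48.8 and 54.5% lay on the chromosome of the splitting gene, against the 78.7% for Pttg1. These splits use the same 302 livers, and the differences between them were not tested.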

How the data were processed

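The authors deposited log10 ratios (base likely, not stated) for 23562 probes and 302 mice, made from 2-colour arrays by steps not given in the sources used here. They end at -2 and 2, with 472 and 546 values there, and were not normalized further. Probes were named through the probe table and gene identifiers (12652 probes, 10838 genes). Fitted were 23511 probes, those measured in 90% of the mice or more and not named Pttg1; 0.0831% of all values are missing.

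Contrasts, slopes and interactions were fitted with limma 3.58.1 in R 4.3.3 (lmFit, eBayes, two-sided) with 4 blocks: Eif2s3y below or above -0.8 by title numbers up to 212 or above, whose meaning is unknown here. P-values were adjusted by Benjamini-Hochberg over all probes, with a threshold of 0.05. The fit was tested on simulated data. Fisher's exact test was run in Python 3.11.15. The probe with the largest SD stands for a gene.

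Named are up to 15 called genes with the smallest adjusted p on and off chromosome 11, the 8 measured genes nearest to Pttg1 on each side, list members and the 10 genes with the smallest adjusted p for the slope. Genes of a called interaction are named too. Smarce1, Ykt6 and Pard3 were named after their values were seen. The split, the lists and the tests were chosen with earlier results of these data known. Other settings of split, block, scaling and filter were run, and fits with 3 levels were added after the data were seen.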

Additional observations from a re-analysis of the deposited data

Results flagged for a closer look

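The difference between the states itself differed between the ranges of title numbers in 2 of 23511 probes (0.00851%, limma), while 2868 had an unadjusted p under 0.05 (12.2%). For Vkorc1l1, a relative of the vitamin K epoxide reductase on chromosome 5, low minus high was 0.0362 in the lower numbers and -0.0303 in the higher ones. The change between the ranges was -0.0664 ± 0.0141 (SE, limma adjusted p = 0.0456). A probe without a gene name had 0.0692 and -0.0661, a change of -0.135 ± 0.0249 (SE, limma adjusted p = 0.00278). Neither probe was among those called between the states.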

How the results depend on the processing

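No paired analysis was possible because the labels give 1 group and each title number belongs to 1 mouse. The 106 calls between the states went to 43 in the higher title numbers alone, and to 47 and 63 with Eif2s3y below and above -0.8. Low minus middle in the fit of 3 levels called 48, and 67 were called with 1 probe per named gene. The share of named calls on chromosome 11, 78.7%, went to 63.7% with the first principal component added, 63.0 and 87.9% in the lower and higher numbers, and 94.1 and 91.5% with Eif2s3y below and above -0.8. Of the 16 nearest genes 1 was called in place of 2 in the higher numbers, in either Eif2s3y range, and among probes with an SD above the median, where 5 were tested. The list genes called were 2 in place of 1 without the blocks, with the component, under quantile normalization and among probes with an SD above the median. The 7176 slopes became 10803 without the blocks, 2555 with the component, 4339 among probes with an SD above the median, 3910 and 4736 in the number ranges and 4154 and 3717 with Eif2s3y below and above -0.8. Mitotic genes that rose went from 14 to 6 with the component, and those steeper in the low state from 13 to 8 with common blocks. Of 16 named calls on chromosome 11, 1 was lost in the higher numbers and 1 in either Eif2s3y range, and of 15 elsewhere 4 were lost without the blocks, 5 under quantile normalization, 8 and 12 in the number ranges and 13 in either Eif2s3y range. No named call reversed under the alternatives run. The ranges hold fewer mice. Spot brightness is not given, so a ratio near background and a low RNA level cannot be told apart.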

Other observations

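Beyond cell division, 3 groups of liver genes had slopes on Pttg1 within the 12 combinations of level and block, a fit added after the data were seen that called 42.5% of all probes, 20.0% positive and 22.5% negative. In the acute phase list 12 of 14 genes had a negative slope and 0 a positive one. Saa1 and Saa3, serum amyloid genes that rise in inflammation, had -1.34 ± 0.236 and -1.39 ± 0.239 (SE, limma adjusted p = 4.19e-07 and 1.95e-07). Within the low state 11 of the 14 were negative, and in the others 6. In fatty acid synthesis 9 of 14 were positive and 0 negative, among them the desaturase Scd1 (0.945 ± 0.140) and the synthase Fasn (0.693 ± 0.133). Cytochrome P450 genes of drug metabolism had 6 of 13 negative and 0 positive. With the first principal component added in the fit of 3 levels, 13.5% of all probes were positive and 11.6% negative. In that fit 9 acute phase genes were negative and 0 positive. Fatty acid synthesis then had 5 positive and 1 negative, and the P450 genes 1 of each. Of these groups 0 genes passed between the Pttg1 states (limma), with 6 acute phase, 3 fatty acid synthesis and 1 P450 gene at an unadjusted p under 0.05.

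Among p53 targets the slope was positive in 4 of 15, near the 20.0% of all probes, and negative in 0. They were Phlda3 (0.633), Sesn2 (0.344), Ei24 (0.317) and Zmat3 (0.223). Endothelial markers had 7 of 11 positive and red cell genes 5 of 6. With the component added in the fit of 3 levels 2 p53 targets were positive and 1 negative, and 3 endothelial and 2 red cell genes were positive. Among all probes 13.5% were positive and 11.6% negative in that fit, so the p53 counts lay near the share of all probes.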
